A study of Mus musculus with 8 samples.

Results

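The genes described here are 37 genes that mark the walls of brain blood vessels, out of 29442 genes counted by RNA-seq in mouse hippocampus. They were chosen by symbol from a list of genes of the blood-brain barrier endothelium (27 genes), of pericytes and other mural cells (7 genes) and of vascular smooth muscle (3 genes). The libraries came from female C57BL/6 J mice of 6 to 8 weeks that received subcutaneous abdominal injections for 21 days. The DHEA group (4 libraries) received dehydroepiandrosterone, an adrenal steroid that tissues convert to androgens and oestrogens, at 30 mg/kg/day, and the control group (4 libraries) received sesame oil. All mice had passed through behavioural tests before dissection. The labels name the tissue as hippocampus and the methods as ventral hippocampus. The methods describe tissue taken from each mouse, part of it for RNA-seq, with n = 4 per group. No source used here states outright that each library is 1 mouse, so the p-values measure the spread between these libraries. Groups are named by the deposited labels. The study's own list of changed genes carries fold changes of the opposite direction to these labels, and it holds none of the 37 genes, so each direction given here is that of the libraries labelled DHEA relative to those labelled sesame oil.

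Brain endothelial cells form the blood-brain barrier. They seal their borders with tight junctions, suppress vesicle traffic across the cell and carry nutrients in and drugs out through transporters, and growth factor receptors of the VEGF and angiopoietin systems keep the vessels alive and stable. Pericytes share a basement membrane with the endothelium of capillaries, and smooth muscle cells wrap arterioles and contract to set blood flow. In bulk RNA of a whole tissue, fewer cells of a type and less RNA per cell cannot be told apart.

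All 37 genes were detected in every library, with no count under 52 and a lowest mean count of 68.9, for Higd1b, so no gene was lost to the filter on low counts. Their levels, compared between genes as FPKM because this unit corrects for length, ran from 206 FPKM for Bsg, which encodes the carrier chaperone basigin and which many cell types make, to 1.08 FPKM for the transcription factor gene Fli1. Below Bsg came Rgs5 at 36.8 FPKM, Itm2a at 36.4 FPKM and Vtn at 35.3 FPKM, whose ranges over libraries overlapped. Slc2a1 (28.8 FPKM), Slco1c1 (25.5 FPKM), Ly6a (20.3 FPKM) and Cldn5 (20.1 FPKM) followed. The 4 transcription factor genes were all at or below 3.11 FPKM. The plot of FPKM shows that mean levels form a continuous series below Bsg.

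**Figure D1:**
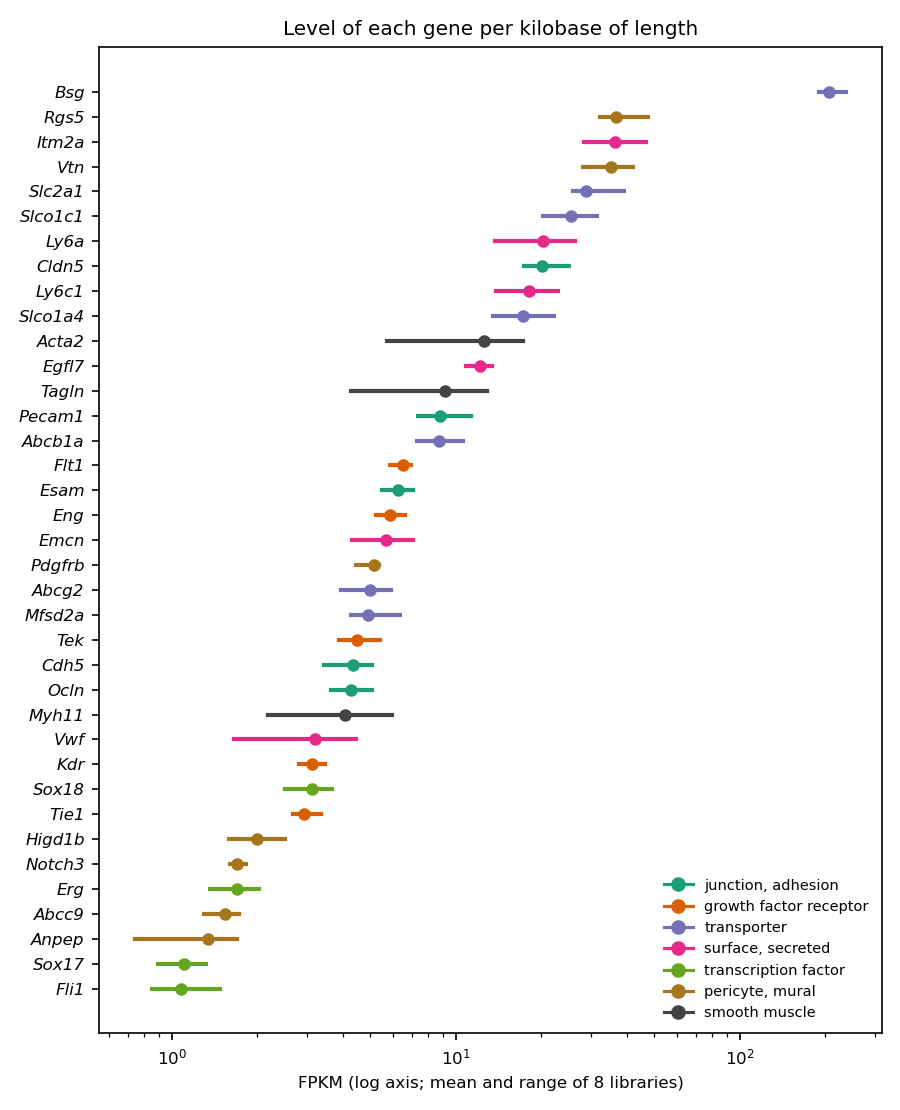
Mean FPKM (point) and range over the 8 libraries (line) for each of the 37 genes, on a log axis and coloured by role. Bsg stands alone at 206 FPKM, and the widest ranges belong to smooth muscle genes, Vwf and Anpep.

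In the libraries labelled DHEA, 12 of the 37 genes (32.4%) were higher with a p below 0.05, before adjustment, by edgeR's quasi-likelihood test, 0 were lower and 25 did not pass. Genes that met this unadjusted threshold are referred to as called. Over all 27612 genes tested, 9.31% were called, 4.82% as higher and 4.49% as lower. Among the 16813 genes whose mean count reached 10, which are nearer to these genes in depth, the shares were 13.1%, 6.85% and 6.26%. The 37 genes were chosen with earlier results of these data known, so their share was not tested against these. The called genes were small in effect, and the largest was Ly6a at 1.43-fold. None of the 37 passed the thresholds that the study's methods set (unadjusted p under 0.05 and a change of at least 2-fold), which 1.6% of all genes tested and 0.446% of those whose mean count reached 10 passed. After Benjamini-Hochberg adjustment over all genes, 0 of the 37 were under 0.05 in edgeR, where the smallest adjusted p among them was 0.203 (Slco1a4), and 0.0% of all genes tested and 0.0% of those whose mean count reached 10 were. DESeq2, run as an alternative, gave 3 of the 37 an adjusted p under 0.05, namely Ly6c1 (0.0198), Slco1a4 (0.021) and Ly6a (0.0424), and 153 genes in all. The median log2 fold change was 0.08 over the 37 genes and 0.01 over all genes tested.

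The called genes were unevenly spread over the roles. They were 5 of 7 transporters, 3 of 6 surface and secreted proteins, 2 of 5 junction genes, 1 of 4 transcription factors, 1 of 7 pericyte genes, 0 of 5 growth factor receptors and 0 of 3 smooth muscle genes. Whether roles differed was not tested. In 5 genes (Ocln, Slco1a4, Ly6c1, Fli1 and Abcc9) every DHEA library lay above every sesame oil library, and 4 of these were called. Such separation was seen in 5.04% of all genes tested (2.42% higher and 2.62% lower in DHEA) and in 7.17% of those whose mean count reached 10 (3.63% higher and 3.53% lower).

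**Figure D2:**
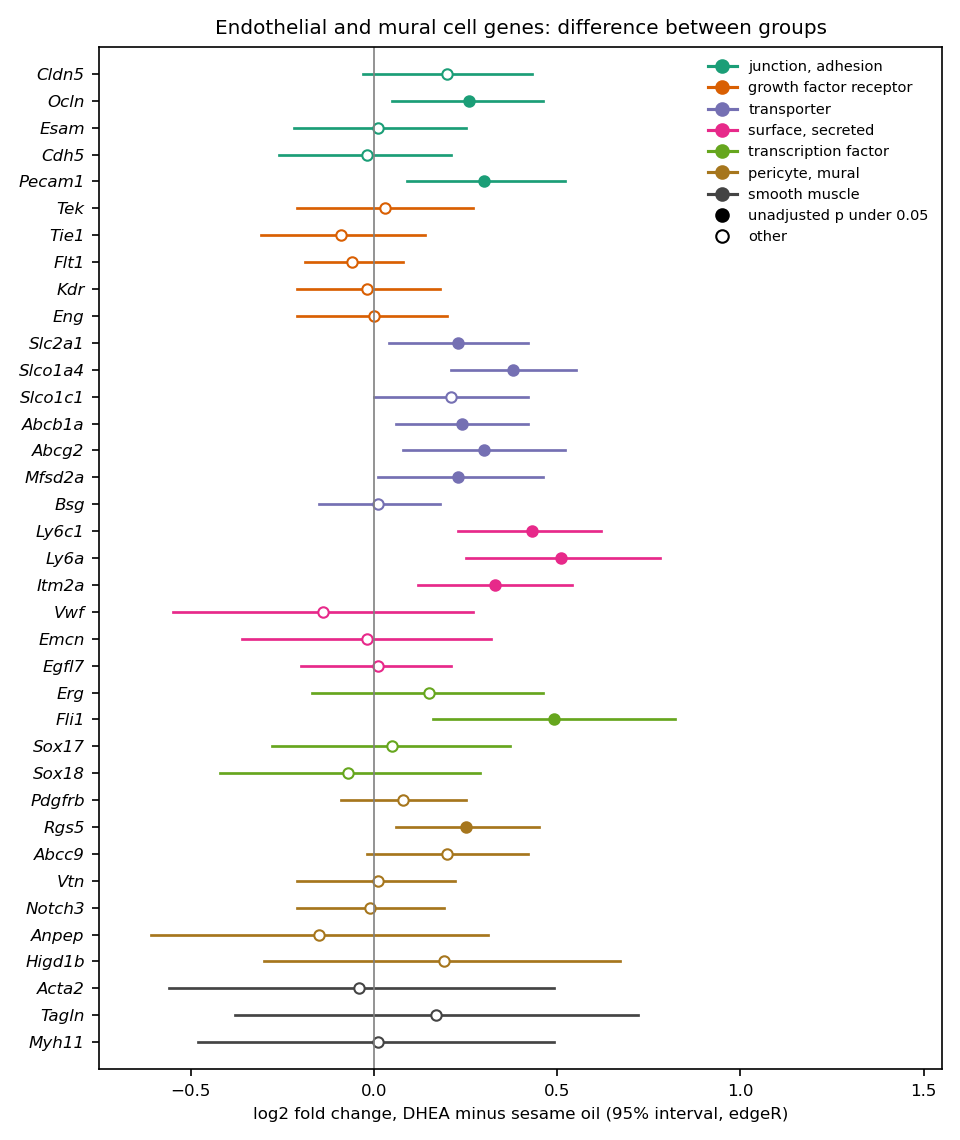
Log2 fold change (libraries labelled DHEA minus sesame oil, 4 per group) with 95% interval from edgeR for each of the 37 genes, ordered and coloured by role. Filled points have an unadjusted p under 0.05, and all 12 of them lie to the right of 0, while the intervals of the 5 receptors all include 0.

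The count of called genes fell when 2 DHEA libraries were left out together. DHEA 1 and DHEA 2 differed most from the other libraries of their group: the chi-square statistic per degree of freedom between replicates was 29.4 to 57.1 for pairs with either of them, 13.8 between DHEA 3 and DHEA 4, and 7.93 to 14.8 between sesame oil libraries. DHEA 1 was the highest DHEA library in 15 of the 37 genes and DHEA 2 in 11. Without DHEA 1 alone 11 genes were called higher, and without DHEA 2 alone 10, beside 3.84% and 3.97% of all genes. The fit without both was added once the data had been seen, and no other pair was left out. Without both, 5 of the 37 genes were called higher (Slc2a1, Slco1a4, Mfsd2a, Ly6c1 and Ly6a) and 2 lower (Flt1 and Vtn), their median log2 fold change was 0.0, and 3.99% of all genes tested were called higher and 3.89% lower. Of the 7 genes whose calls were lost in this fit of 2 against 4 libraries, Abcg2 (log2 fold change 0.30 with all libraries and 0.26 without the pair) and Pecam1 (0.30 and 0.25) kept most of their difference. Ocln (0.26 and 0.19), Abcb1a (0.24 and 0.16) and Fli1 (0.49 and 0.32) kept less, and Itm2a (0.33 and 0.13) and Rgs5 (0.25 and 0.03) least. DHEA 3 lay at the other end. It was the lowest DHEA library in 24 of the 37 genes. Without it 15 genes were called higher, and the median for the 37 was 0.19. Of these 15 genes, 4 had an adjusted p under 0.05 in edgeR (Ly6a, Ly6c1, Pecam1 and Slco1a4). In the same fit 13.4% of all genes were called, 6.51% as higher, against 9.31% and 4.82% with all libraries. The share of all genes with an adjusted p under 0.05 in that fit is not given here.

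**Figure D3:**
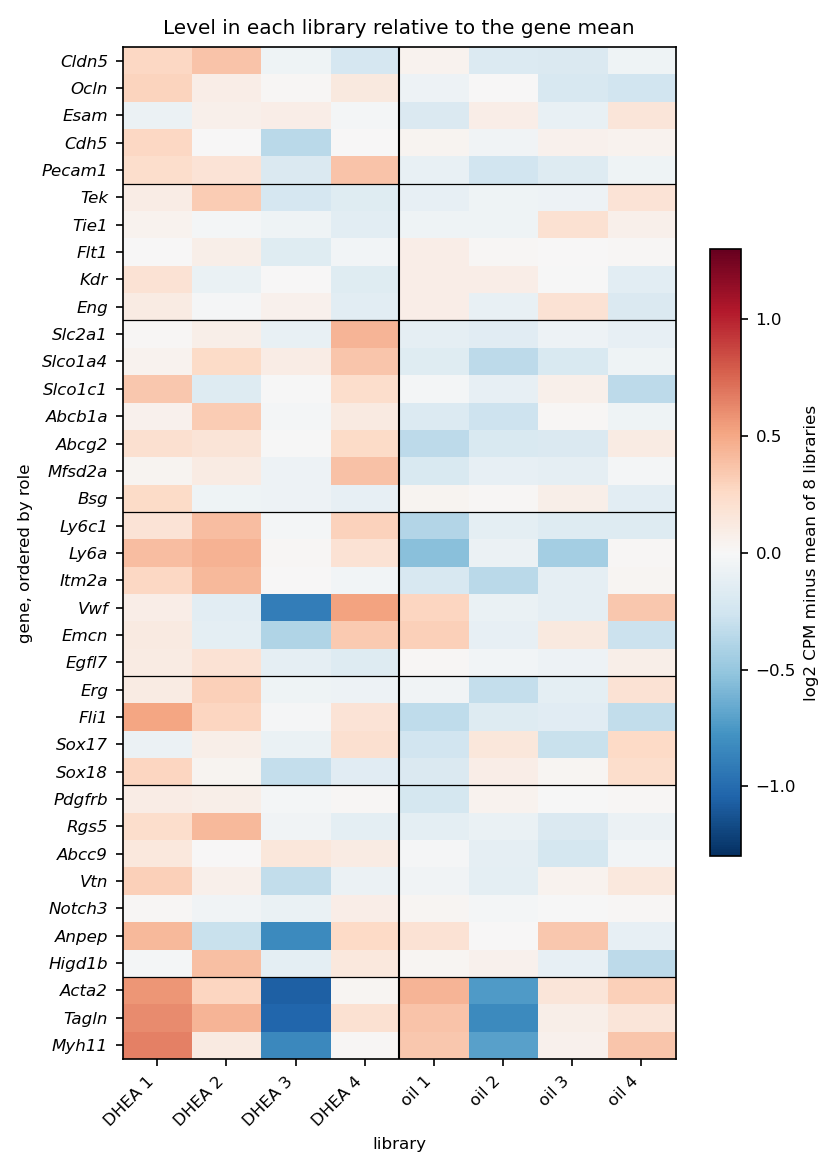
Log2 CPM of each of the 37 genes in each of the 8 libraries, relative to that gene's mean over the 8, with genes in rows by role and libraries in columns. Receptor rows are among the palest, and the darkest cells are smooth muscle genes, Vwf and Anpep in DHEA 3 and smooth muscle genes in sesame oil 2.

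Library measures also separated the groups. Total counts were 35748416 to 38038361 in the DHEA libraries and 31483772 to 35418297 in the sesame oil libraries, without overlap. The Spearman correlation across genes between GC content and level relative to the mean library ran from -0.159 to -0.0103 in DHEA and from 0.0729 to 0.184 in sesame oil, and mitochondrial transcripts took 7.29% to 9.34% of counts in DHEA and 6.37% to 7.23% in sesame oil. The median GC content of the longest transcript was 44.9% for the called genes, 53.1% for the other 25 and 49.7% for genes whose mean count reached 10, and 9 of the 12 called genes lay below this last value. With the GC trend of each library removed, 11 of the 37 genes were called higher: Ocln (log2 fold change 0.26 before and 0.20 after) and Abcg2 (0.30 and 0.22) no longer passed, and Cldn5 (0.20 and 0.25) did. In that fit 3.93% of all genes were called higher. With all libraries thinned to the same total, 12 were called, Abcc9 in place of Mfsd2a, beside 4.41% of all genes called higher.

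Transporters held the most called genes. Slco1a4 encodes an organic anion transporter that carries bile acids, steroid conjugates and drugs across the barrier. It was at 70.8, 82.0, 73.6 and 88.6 CPM in DHEA 1 to 4 and at 61.5, 54.2, 60.2 and 66.3 CPM in sesame oil 1 to 4. The groups did not overlap, with means of 78.7 ± 8.1 and 60.6 ± 4.96 CPM (SD, n = 4 each). Its log2 fold change was 0.38 ± 0.08 (SE), with an unadjusted p of 0.000169 and an adjusted p of 0.203 in edgeR, the smallest unadjusted p of the 37 genes. The exact permutation p was 0.0286, the smallest that 4 against 4 libraries can give, and the gene was called in each of the 8 fits that left out 1 library. Its near copies Slco1a1, Slco1a5 and Slco1a6, with which reads could have been split, were at 2.22 CPM or less.

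The drug efflux pumps followed the same direction. Abcg2, which encodes the breast cancer resistance protein, was at 21.2, 20.5, 18.2 and 21.7 CPM in DHEA 1 to 4 and at 14.4, 16, 16.1 and 19.7 CPM in sesame oil 1 to 4. Sesame oil 4 overlapped the DHEA range, and the log2 fold change was 0.30 ± 0.11 (p = 0.0106, adjusted p = 0.381, edgeR; exact permutation p = 0.0571). Abcb1a, the P-glycoprotein gene of brain capillaries, was at 46.7, 56.7, 44.4 and 48.9 CPM against 45.5 CPM or less in sesame oil (39.8, 37.5, 45.5 and 43.4 CPM). Only DHEA 3 fell within the sesame oil range. Its log2 fold change was 0.24 ± 0.08 (p = 0.0106, adjusted p = 0.381, edgeR; exact permutation p = 0.0571), and it was not called without DHEA 2. Its near copy Abcb1b, with which reads could have been split, was at 3.98 to 6.2 CPM.

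Slc2a1, which encodes the glucose carrier GLUT1 of endothelium and astrocytes, was at 77.5, 80.9, 71.6 and 104 CPM in DHEA 1 to 4 and at 70.6, 69.2, 73.3 and 70.9 CPM in sesame oil 1 to 4. DHEA 4 was the highest and DHEA 3 lay within the narrow sesame oil range. The log2 fold change was 0.23 ± 0.09 (p = 0.0185, adjusted p = 0.421, edgeR; exact permutation p = 0.0571), and without DHEA 4 it was 0.11 and not called. Mfsd2a, which encodes a carrier of lysophospholipids with omega-3 fatty acids and keeps vesicle transport low, was at 15.7, 16.5, 14.6 and 19.9 CPM in DHEA 1 to 4 and at 13.4, 14.2, 14.1 and 15.1 CPM in sesame oil 1 to 4. The groups overlapped through DHEA 3 and sesame oil 4. It had the weakest call of the 12, with a log2 fold change of 0.23 ± 0.11 (p = 0.0443, adjusted p = 0.529, edgeR; exact permutation p = 0.0571), and was called in 3 of the 8 fits that left out 1 library, with 0.14 without DHEA 4.

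The remaining transporter genes did not pass. Slco1c1, whose product carries thyroxine and is also made by astrocytes, had a log2 fold change of 0.21 ± 0.10 (p = 0.0538, adjusted p = 0.542, edgeR; exact permutation p = 0.229), with DHEA libraries at 72.1 to 103 CPM and sesame oil libraries at 64.0 to 84.9 CPM. Bsg was at 428, 345, 343 and 334 CPM in DHEA 1 to 4 and at 368, 363, 378 and 326 CPM in sesame oil 1 to 4. Apart from DHEA 1, its DHEA libraries lay within the sesame oil range, and its log2 fold change was 0.01 ± 0.08 (95% interval -0.15 to 0.18; adjusted p = 0.976, edgeR; exact permutation p = 0.971).

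Among surface and secreted proteins, the called genes included Ly6a, which had the largest difference of the 37. Ly6c1 encodes a lipid-anchored Ly6 protein that is abundant on mouse brain endothelium. It was at 35.5, 41.4, 30.8 and 38.5 CPM in DHEA 1 to 4 and at 24.1, 28.7, 27.9 and 28 CPM in sesame oil 1 to 4. No library overlapped with the other group, and the means were 36.6 ± 4.52 and 27.2 ± 2.08 CPM (SD, n = 4 each). The log2 fold change was 0.43 ± 0.09 (p = 0.000227, adjusted p = 0.223, edgeR; exact permutation p = 0.0286), and it was called in all 8 fits that left out 1 library. Reads could have been split with its near copy Ly6c2, which was at 0.168 CPM or less.

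Ly6a encodes the related surface protein Sca-1. It was at 26.2, 27.2, 20.0 and 22.6 CPM in DHEA 1 to 4 and at 13.6, 18.9, 14.6 and 20.0 CPM in sesame oil 1 to 4. The groups met at 20.0 CPM, where DHEA 3 and sesame oil 4 lay. Its log2 fold change of 0.51 ± 0.13 was the largest of the 37 (p = 0.000768, adjusted p = 0.24, edgeR; exact permutation p = 0.0571). Itm2a, which encodes a membrane protein enriched in brain endothelium, was at 70.9, 78.6, 58.9 and 57.2 CPM in DHEA 1 to 4 and at 51.0, 46.1, 54.2 and 59.8 CPM in sesame oil 1 to 4. DHEA 1 and 2 stood above all others, and DHEA 3 and 4 lay below sesame oil 4. Its log2 fold change was 0.33 ± 0.10 (p = 0.00351, adjusted p = 0.293, edgeR; exact permutation p = 0.0857). Ly6a and Itm2a were both called in all 8 fits that left out 1 library, but without both DHEA 1 and DHEA 2 Itm2a was at 0.13 and not called.

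Vwf, Emcn and Egfl7 did not pass, with log2 fold changes of -0.14, -0.02 and 0.01. Vwf, which encodes the von Willebrand factor of larger vessels, varied most of the endothelial genes: it was at 29.2, 25.0, 14.7 and 39.4 CPM in DHEA 1 to 4 and at 33.4, 25.8, 25.4 and 35.0 CPM in sesame oil 1 to 4. Its coefficient of variation was 37.7% in DHEA and 16.9% in sesame oil, and DHEA 3 was the lowest and DHEA 4 the highest of the 8 libraries. Without DHEA 4 it was called lower.

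The junction genes gave calls for Ocln and Pecam1. Ocln encodes occludin, a protein of the tight junction strand. It was at 21.9, 19.0, 18.1 and 19.5 CPM in DHEA 1 to 4 and at 17.1, 17.9, 15.5 and 15.1 CPM in sesame oil 1 to 4. The groups were separated by a narrow gap between DHEA 3 and sesame oil 2. The log2 fold change was 0.26 ± 0.10 (p = 0.0164, adjusted p = 0.412, edgeR; exact permutation p = 0.0286), and the call was lost without DHEA 1, without sesame oil 3 and without sesame oil 4. Pecam1, which encodes the adhesion protein CD31 of endothelial contacts, was at 34.0, 32.9, 25.5 and 37.5 CPM in DHEA 1 to 4 and at 27.1, 24.4, 25.8 and 27.9 CPM in sesame oil 1 to 4. DHEA 3 alone lay within the sesame oil range. Its log2 fold change was 0.30 ± 0.10 (p = 0.0075, adjusted p = 0.343, edgeR; exact permutation p = 0.114), and it was called in all 8 fits that left out 1 library.

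Cldn5, which encodes the main claudin of the barrier, did not pass. It was at 34.1, 36.5, 27.3 and 24.4 CPM in DHEA 1 to 4 and at 29.2, 25.1, 24.9 and 27.2 CPM in sesame oil 1 to 4. DHEA 1 and 2 were the highest libraries and DHEA 4 the lowest, and the log2 fold change was 0.20 ± 0.11 (p = 0.0865, adjusted p = 0.588, edgeR; exact permutation p = 0.314). It was called higher without DHEA 3 (0.25) and without DHEA 4 (0.29), and its direction turned without both DHEA 1 and DHEA 2, where it was -0.05. Esam and Cdh5, which encode adhesion molecules of the endothelial contact, had log2 fold changes of 0.01 and -0.02.

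**Figure D4:**
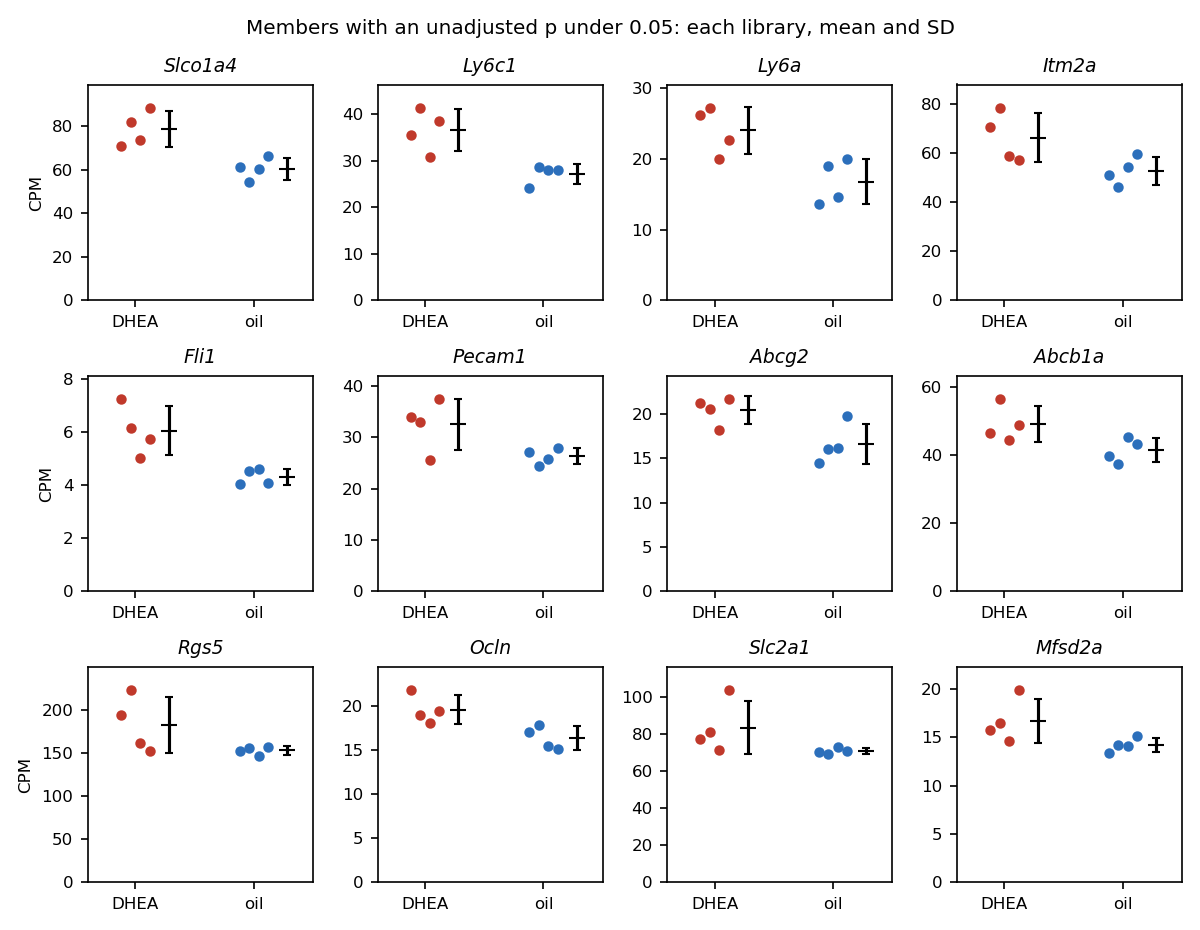
TMM-normalised CPM of the 12 genes with an unadjusted p under 0.05, from libraries labelled DHEA (red, replicates 1 to 4 from left to right) and sesame oil (blue, likewise), with the mean and SD of each group of 4 beside the points. Slco1a4, Ly6c1, Fli1 and Ocln are the 4 panels in which the groups do not overlap.

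Of the 4 transcription factor genes, Fli1 was called. Fli1 and Erg encode factors of the ETS family that maintain endothelial identity, and Fli1 is also expressed in microglia and blood cells. Fli1 was at 7.27, 6.17, 5.05 and 5.75 CPM in DHEA 1 to 4 and at 4.04, 4.54, 4.60 and 4.09 CPM in sesame oil 1 to 4. The groups did not overlap, and the log2 fold change was 0.49 ± 0.16 (p = 0.00597, adjusted p = 0.323, edgeR; exact permutation p = 0.0286), with a call in all 8 fits that left out 1 library. Erg was at 6.70, 7.71, 5.99 and 5.94 CPM in DHEA 1 to 4 and at 6.01, 5.02, 5.68 and 7.09 CPM in sesame oil 1 to 4. These ranges overlapped, with a log2 fold change of 0.15 ± 0.15 (adjusted p = 0.696, edgeR; exact permutation p = 0.4). Sox18, which encodes a SOX factor of vessel development, was at 6.06, 5.10, 4.02 and 4.49 CPM in DHEA 1 to 4 and at 4.38, 5.30, 5.08 and 5.84 CPM in sesame oil 1 to 4. The sesame oil range lay inside that of DHEA, and the log2 fold change was -0.07 ± 0.17 (adjusted p = 0.903, edgeR; exact permutation p = 0.714). The related Sox17 had a log2 fold change of 0.05.

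None of the 5 growth factor receptors passed, and their log2 fold changes lay between -0.09 and 0.03. Flt1, which encodes VEGF receptor 1, was at 90.5, 95.6, 80.9 and 88.2 CPM in DHEA 1 to 4 and at 95.8, 91.6, 90.5 and 91.6 CPM in sesame oil 1 to 4. DHEA 3 was the lowest library, and the log2 fold change was -0.06 ± 0.06 (95% interval -0.19 to 0.08; adjusted p = 0.735, edgeR; exact permutation p = 0.343). Without DHEA 1 and 2 it was called lower, at -0.13. Tie1, which encodes an orphan receptor that pairs with the angiopoietin receptor Tie2, was at 11.7, 11.1, 10.9 and 10.3 CPM in DHEA 1 to 4 and at 10.9, 10.9, 13 and 11.8 CPM in sesame oil 1 to 4. These overlapped, with a log2 fold change of -0.09 ± 0.11 (95% interval -0.31 to 0.14; adjusted p = 0.767, edgeR; exact permutation p = 0.371). Tek (the angiopoietin receptor Tie2), Kdr (VEGF receptor 2) and Eng (endoglin, a co-receptor of TGF-beta ligands) had log2 fold changes of 0.03, -0.02 and 0.0, with 95% intervals inside -0.21 to 0.27. The receptors were also the steadiest role, with a median coefficient of variation within groups of 8.96%, against 13.1% for all 37 genes and 8.74% for the 12238 genes with a mean count of 100 to 10000.

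Promoter sequences are shown for 2 called genes and 2 receptors that were not called, because ETS and SOX factors are among the genes described. RefSeq promoters (GRCm38.p6, 250 bases before to 50 bases after the transcript start) were matched for 24 of the 37 genes. They were searched on both strands for CCGGAA, a core of ETS sites, and for ACAAT, a core of SOX sites. The windows are chr6:141856171-141856470 on the minus strand for Slco1a4, chr13:100552669-100552968 on the minus strand for Ocln, chr4:94739039-94739338 on the plus strand for Tek and chr5:75978406-75978705 on the minus strand for Kdr, each written 5′ to 3′ along the gene's strand. Capitals mark the matches, as CCGGAA or its reverse complement TTCCGG and as ACAAT or its reverse complement ATTGT.
Slco1a4: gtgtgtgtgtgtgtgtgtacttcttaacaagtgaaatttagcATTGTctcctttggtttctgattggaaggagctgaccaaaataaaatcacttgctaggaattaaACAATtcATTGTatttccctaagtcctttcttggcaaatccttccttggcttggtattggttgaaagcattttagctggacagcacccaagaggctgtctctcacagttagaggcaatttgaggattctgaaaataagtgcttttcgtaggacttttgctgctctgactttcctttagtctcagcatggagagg
Ocln: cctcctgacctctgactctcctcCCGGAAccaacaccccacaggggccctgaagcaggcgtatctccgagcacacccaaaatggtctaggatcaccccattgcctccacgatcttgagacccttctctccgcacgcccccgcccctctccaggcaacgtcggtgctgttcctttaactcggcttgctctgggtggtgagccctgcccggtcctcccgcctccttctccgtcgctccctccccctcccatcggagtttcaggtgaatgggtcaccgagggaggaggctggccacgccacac
Tek: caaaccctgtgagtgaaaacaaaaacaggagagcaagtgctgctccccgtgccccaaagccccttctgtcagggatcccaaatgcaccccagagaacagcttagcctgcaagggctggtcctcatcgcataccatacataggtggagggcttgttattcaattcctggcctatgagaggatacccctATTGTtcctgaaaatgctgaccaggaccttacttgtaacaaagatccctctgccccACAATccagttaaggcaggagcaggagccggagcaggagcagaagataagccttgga
Kdr: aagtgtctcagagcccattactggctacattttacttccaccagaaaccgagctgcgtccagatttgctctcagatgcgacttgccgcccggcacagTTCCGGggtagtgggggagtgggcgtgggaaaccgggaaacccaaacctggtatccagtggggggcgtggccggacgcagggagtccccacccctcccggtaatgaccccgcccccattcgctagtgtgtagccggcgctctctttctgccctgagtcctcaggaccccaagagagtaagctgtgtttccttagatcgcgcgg

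Slco1a4 held 3 ACAAT matches, Tek held 2, and Ocln and Kdr held 1 CCGGAA match each. Ocln had 2 promoter windows, and the window not shown held no CCGGAA match. Over the matched genes, ACAAT was found in 6 of 24 (Abcg2, Emcn, Erg, Rgs5, Slco1a4 and Tek), which is 6 of their 32 windows, and in 31% of 32851 RefSeq promoter windows. CCGGAA was found in 2 of 24 (Kdr and Ocln), which is 2 of 32 windows, and in 14.9% of all windows. Each motif thus occurred both in called genes and in genes that did not pass. The CArG box, the site of serum response factor in smooth muscle genes, was found in 0 of 24 genes and in 1.63% of windows. Of the smooth muscle genes described, only Acta2 was among the 24. These matches are letters in a window and say nothing of whether a factor binds there. Pecam1, Sox17, Cdh5, Esam, Ly6a, Fli1, Sox18, Pdgfrb, Myh11, Vwf, Higd1b, Tagln and Bsg had no matched entry.

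Of the 7 pericyte and mural cell genes, Rgs5 was called. Rgs5 encodes a regulator of G protein signalling that is a standard pericyte marker. It was at 194, 223, 161 and 152 CPM in DHEA 1 to 4 and at 152, 156, 146 and 157 CPM in sesame oil 1 to 4. DHEA 1 and 2 stood above the rest, and DHEA 4 lay within the sesame oil range. The log2 fold change was 0.25 ± 0.09 (p = 0.0129, adjusted p = 0.395, edgeR; exact permutation p = 0.114), and without DHEA 2 it was 0.13 and not called. Abcc9, which encodes the sulphonylurea receptor subunit of the pericyte potassium channel, was at 13.6, 12.4, 13.7 and 13.3 CPM in DHEA 1 to 4 and at 12.2, 11.4, 10.5 and 12 CPM in sesame oil 1 to 4. Its groups did not overlap, and yet the log2 fold change of 0.20 ± 0.10 did not pass in edgeR (p = 0.0665, adjusted p = 0.562; exact permutation p = 0.0286). The other 5 genes, among them Pdgfrb (the PDGF-BB receptor), Notch3 and Vtn (vitronectin), had log2 fold changes between -0.15 (Anpep) and 0.19 (Higd1b). Vtn turned from 0.01 to -0.21 without DHEA 1 and 2, where it was called lower.

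None of the 3 smooth muscle genes passed, and they varied far more between libraries than any other role. Acta2, which encodes smooth muscle actin, was at 49.8, 40.8, 16.1 and 34.2 CPM in DHEA 1 to 4 and at 45.5, 20.2, 37.3 and 41.7 CPM in sesame oil 1 to 4. DHEA 3 and sesame oil 2 were far below the others, and the log2 fold change was -0.04 ± 0.25 (95% interval -0.56 to 0.49; adjusted p = 0.984, edgeR; exact permutation p = 0.914). Tagln, which encodes the actin-binding protein transgelin, was at 20.9, 18.6, 6.71 and 15.7 CPM in DHEA 1 to 4 and at 17.7, 7.74, 14.4 and 15.3 CPM in sesame oil 1 to 4. The same 2 libraries were low, and the log2 fold change was 0.17 ± 0.26 (95% interval -0.38 to 0.72; adjusted p = 0.826, edgeR; exact permutation p = 0.6). Myh11, the smooth muscle myosin heavy chain gene, was again lowest in these libraries, at 16.3 and 17.9 CPM against 29.4 to 45.8 CPM in the other 6. Coefficients of variation of the 3 genes were 39.3% to 40.4% in DHEA and 29.9% to 31% in sesame oil. Standard errors were 0.23 to 0.26 for the 3 genes. Tagln was called higher without DHEA 3, at a log2 fold change of 0.42. Reads of near-identical actin genes could have been split, and Actg2 was at 0.0841 to 0.619 CPM and Acta1 at 3.23 to 4.80 CPM. Actb, also looked at as a near copy, was far more abundant, at a mean of 512 FPKM against 12.6 FPKM for Acta2. Whether reads were shared was not tested.

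**Figure D5:**
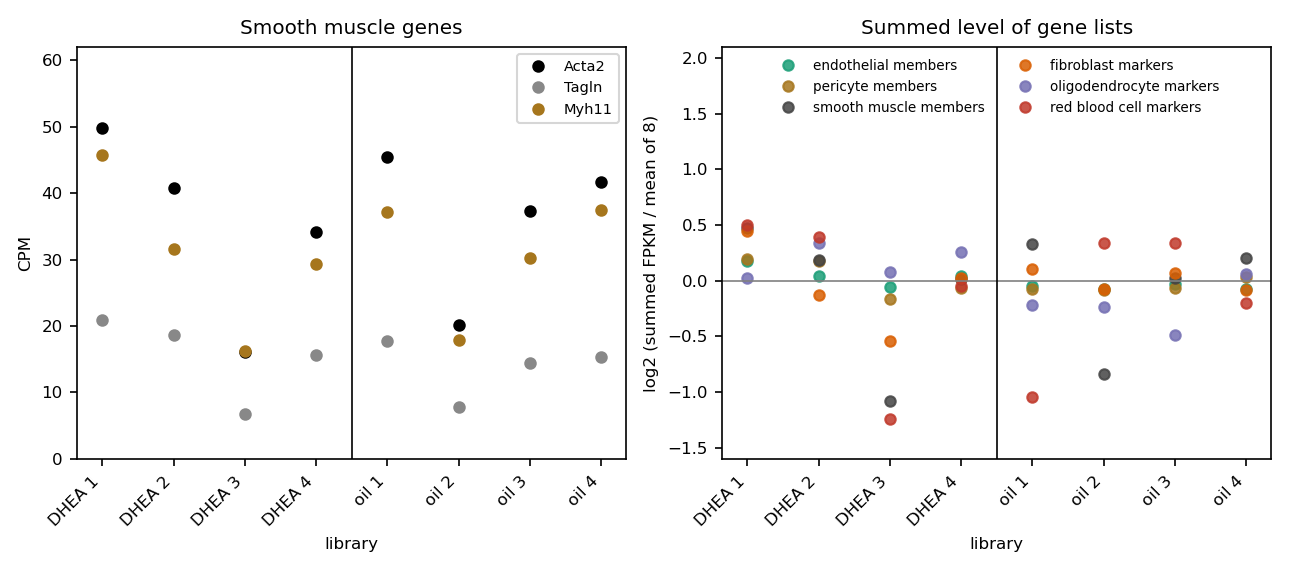
Left, CPM of the 3 smooth muscle genes in each library; right, summed FPKM of 6 gene lists in each library as log2 of its ratio to the mean of the 8 libraries. Smooth muscle genes are low in DHEA 3 and sesame oil 2, and red blood cell markers are low in DHEA 3 and sesame oil 1.

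The summed level of the 3 smooth muscle genes was 12.2 FPKM in DHEA 3 and 14.5 FPKM in sesame oil 2, against 26.1 to 36.0 FPKM in the other libraries. Fibroblast and meningeal markers summed to 43.0 FPKM in DHEA 3 and to 57.1 to 85.4 FPKM elsewhere, with Dcn the most abundant. Red blood cell markers summed to 72.9 FPKM in DHEA 3 and 83.7 FPKM in sesame oil 1, and to 150.4 to 245 FPKM in the other 6, with Hbb-bs the most abundant. DHEA 3 was thus low in all of these lists, and sesame oil 2 was low in smooth muscle genes but not in red blood cell markers (218 FPKM). The 27 endothelial genes summed to 447 to 525 FPKM in DHEA and 442 to 457 FPKM in sesame oil, a sum in which Bsg weighs most. The other 26 summed to 249.9 to 289 FPKM in DHEA, lowest in DHEA 3, and to 233 to 253 FPKM in sesame oil.

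Genes of the vascular pathways that are not among the 37 were called at a share near the background when both directions were pooled. Of 152 such genes tested from 11 lists, 12 were called higher and 5 lower, and their median log2 fold change was 0.07. The share was 11.2% in all, beside 9.31% of all genes tested and 13.1% of those whose mean count reached 10. Higher calls took 7.89%, beside 4.82% and 6.85%, and the background shares of lower calls were 4.49% and 6.26%. Of these 17 calls, 5 (Vegfa, Heyl, Wnt7a, Tfrc and Col4a2) held in all 8 fits that left out 1 library and 12 were lost in at least 1. In the VEGF and angiopoietin list, 0 of 15 were higher and 2 lower. Vegfa, the main VEGF ligand, was at 47.6 to 70.2 CPM in DHEA and 67.0 to 78.0 CPM in sesame oil (log2 fold change -0.30 ± 0.10, adjusted p = 0.333, edgeR), with its lowest values in DHEA 1 and 2, and without both it was at -0.12 and not called. Aplnr, the apelin receptor, was at 0.137 to 0.646 CPM in DHEA and 0.682 to 0.92 CPM in sesame oil (-0.94 ± 0.44, adjusted p = 0.531, edgeR), from 5 to 31 counts per library, and its call was lost in 6 of the 8 fits that left out 1 library. Vegfb was the most abundant gene of that list at 24.4 FPKM.

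The ligands and targets of mural cell signalling gave 4 of 15 genes higher and 0 lower, beside 4.82% and 4.49% of all genes tested. Where the mean count reached 10, the shares were 6.85% and 6.26%. The 4 were Pdgfa (log2 fold change 0.17), the TGF-beta receptor gene Tgfbr2 (0.23), the BMP target Id3 (0.20) and the sphingosine-1-phosphate receptor gene S1pr1 (0.16). Each of the 4 lost its call in at least 1 of the 8 fits that left out 1 library. S1pr1 was the most abundant of the list at 48.3 FPKM. In the Notch and arterial list, Heyl, a Notch target of mural cells, was called higher (0.46 ± 0.15) and the other 15 did not pass, with Hey1 the most abundant at 14.5 FPKM. Heyl was at 5.45 to 7.43 CPM in DHEA and 4.45 to 4.79 CPM in sesame oil, without overlap. In the Wnt list, which holds the signals that induce the barrier, Wnt7a was lower (-0.41 ± 0.13) and the other 14 did not pass, with Ctnnb1 at 128 FPKM the most abundant. Wnt7a was at 9.46 to 11.8 CPM in DHEA and 11.1 to 16.3 CPM in sesame oil.

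Further barrier genes were called in small numbers. Over all genes tested, 4.82% were called higher and 4.49% lower, and 6.85% and 6.26% where the mean count reached 10. Of 16 other transporter genes, the transferrin receptor gene Tfrc (0.23) and the iron exporter gene Slc40a1 (0.37) were higher and 0 were lower, with Spock2 at 161 FPKM the most abundant. Jam2, a junctional adhesion molecule gene, was the 1 higher of 12 other junction genes (0.20), with Cd34 at 19.2 FPKM the most abundant. Of 7 genes of caveolae and vesicle transport, Cav2 (0.23; 10.9 FPKM, the most abundant) and Cavin2 (0.28) were higher. Of 13 basement membrane genes, the collagen gene Col4a2 (-0.37) and the agrin gene Agrn (-0.26) were lower, with the low values in DHEA 1 and 2: Agrn was at 125 and 123 CPM there and at 175 to 201 CPM in the other 6 libraries. Without both, Col4a2 was at -0.13 and Agrn at -0.01, and neither was called. Sparc was the most abundant of that list at 117 FPKM.

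Of 16 other pericyte genes, Mcam was called higher (0.25), beside 4.82% of all genes tested. Mcam was the most abundant of that list at 8.15 FPKM. Of 15 other smooth muscle genes 0 were called, with Tpm1 at 31.5 FPKM the most abundant. Of 12 genes of vessel activation tested, Lcn2, which encodes lipocalin 2, was called higher at a log2 fold change of 1.75 ± 0.67 (adjusted p = 0.421, edgeR; exact permutation p = 0.686). This rested on 1 library. Lcn2 was at 12.2 CPM in DHEA 4 and at 0.61 to 1.63 CPM in the other 7, and without DHEA 4 its log2 fold change was -0.17. Plat, which encodes tissue plasminogen activator, was the most abundant of that list at 15.1 FPKM. A further gene of that list was not analysed here.

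Markers of glial cell types were also called, where 4.82% of all genes tested and 6.85% of those whose mean count reached 10 were called higher. Of 7 oligodendrocyte markers, 7 were called higher in DHEA (median log2 fold change 0.39), and their summed level was 867, 1082, 902 and 1017 FPKM in DHEA 1 to 4 and 734, 722, 609.5 and 890.3 FPKM in sesame oil 1 to 4, with Mbp the most abundant of the 7. Of 8 astrocyte markers, 5 were higher (median 0.17), with sums of 821 to 961 FPKM in DHEA and 761 to 868 FPKM in sesame oil and Slc1a2 the most abundant. Of 7 microglial markers, 3 were higher (median 0.15), with sums of 104 to 134 FPKM and 91.0 to 110 FPKM and C1qa the most abundant of the 7. The called share of each glial list was above that of the 37 vascular genes, and the part of tissue composition in the vascular result was not tested.

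Perivascular macrophage markers, which sit beside the vessels, gave 1 of 6 higher (Mrc1, 0.44, the most abundant), with sums of 1.94 FPKM in DHEA 3 and 3.96 to 6.87 FPKM elsewhere. Neuronal markers gave 1 of 8 lower (Rbfox3, -0.16), beside 4.49% of all genes tested. Their sums were 1729.7 to 1862 FPKM in DHEA and 1769.9 to 1932 FPKM in sesame oil, with Snap25 the most abundant. Hippocampal neuron markers gave 0 of 8, with sums of 276 to 309 FPKM and 282 to 318 FPKM, and their most abundant gene Neurod6 was at 105 FPKM, so markers of the labelled tissue were present throughout. Ependymal markers gave 1 of 5 higher (Rarres2, the most abundant), with sums of 25.1 to 31.9 FPKM and 13.8 to 31.2 FPKM. Fibroblast and red blood cell markers gave 0 of 8 and 0 of 5. Choroid plexus markers gave 0 of 8 but varied widely, with sums of 3654, 114, 1882 and 3509 FPKM in DHEA 1 to 4 and 2609, 1709, 1907 and 458 FPKM in sesame oil 1 to 4, with Ttr the most abundant at a mean of 1601 FPKM. No marker of these lists was at 0 in any library.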

How the data were processed

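RNA of 8 hippocampal libraries (4 labelled DHEA, 4 sesame oil; polyA RNA, paired reads) was analysed. Gene counts as deposited by the authors were raw and were made, per the submitters' processing notes, with fastp, HISAT2 and HTSeq against GRCm39; versions and strand setting are not given in the sources used here. The authors also deposited FPKM, which equal the count divided by the library total and 1 length per gene (within 0.1% in 25234 of 25234 genes). The 37 genes and all lists were chosen with earlier results of these data known.

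edgeR 4.0.16 in R 4.3.3 was fitted to the 27612 genes with at least 1 count (TMM, quasi-likelihood test, prior count 0.125, no covariate), with Benjamini-Hochberg adjustment over all of them. CPM are TMM-normalised counts per 1000000. For single genes, mean CPM was also tested by exact permutation, two-sided, over 70 allocations, whose smallest p is 0.0286. Total counts of 31483772 to 38038361 per library gave each of the 37 genes at least 52 counts. For the genes with the fewest counts, such as Higd1b, counting error is part of the spread between libraries.

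Given in full are the called genes and, per role, the 2 with the smallest p and the one with the highest FPKM. Of the pathway genes, those named had an p below 0.05 before adjustment and a mean count of 10 or more, or the highest FPKM of their list. The alternatives were DESeq2 1.42.0, RLE normalization, robust moderation, a prior count of 1, filterByExpr, a filter of at least 10 counts, limma-trend (limma 3.58.1) on log2(FPKM + 1) and log2(FPKM + 0.1), removal of each library's GC trend (lowess, span 0.3; GC of the longest transcript), thinning to 31483772 counts and leaving out libraries. The edgeR and DESeq2 fits were tested on simulated data with changes of 2-fold. Changes as small as those of the 37 genes were not simulated. The authors' table of changed genes (fold changes and p-values) was read only for its direction and for whether it holds the 37 genes, and genomic positions come from RefSeq promoters only. Some genes of the marker lists are not reported here and are left out of the lists' counts and sums.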

Additional observations from a re-analysis of the deposited data

Results flagged for a closer look

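In each of the 37 genes, the highest and the lowest library of each group of 4 were compared with their neighbours by Dixon's ratio of gap to range. Of 74 groups, 3 exceeded the critical value, where chance gives about 1 in 20. Tek in sesame oil 4 was at 24.8 CPM against 20.4 to 21.1 CPM in the other sesame oil libraries, with a ratio of 0.8412. Bsg in DHEA 1 was at 428 CPM against 334 to 345 CPM in the other DHEA libraries, with a ratio of 0.883. Ly6c1 in sesame oil 1 was at 24.1 CPM against 27.9 to 28.7 CPM in the others, with a ratio of 0.8291, and its call held without this library.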

How the results depend on the processing

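Under the 10 alternatives that kept all libraries, 9 to 12 of the 37 genes were called higher and 0 lower, with a median log2 fold change of 0.05 to 0.11 and with 3.82% to 5.91% of all genes called higher, and 0 passed the study's thresholds. DESeq2 gave 3 genes an adjusted p under 0.05, where the other 9 gave 0. Both limma-trend fits, at 9, dropped Mfsd2a, Rgs5 and Slc2a1. When each library was left out in turn, 10 to 15 of the 37 genes were called higher and 0 to 1 lower (Vwf, without DHEA 4). In the same fits 3.31% to 6.51% of all genes were called higher. Of the 37 genes, 0 to 4 had an adjusted p under 0.05 in edgeR, and the median ranged from 0.05 to 0.19. The higher end in each came from leaving out DHEA 3, apart from the gene called lower. Without DHEA 3, 13.4% of all genes were called before adjustment. The share of all genes under 0.05 after adjustment is not given for these fits. Leaving out DHEA 1 and 2 together, an alternative that was added once the data had been seen, left 5 higher, 2 lower and a median of 0.0, beside 3.99% of all genes higher and 3.89% lower, and Vtn reversed to -0.21; the cause was not tested. Of 703 values of single genes over 19 alternatives, 662 stayed on their side of the threshold, 30 of called genes no longer passed, 10 of other genes newly passed and 1 reversed. Genes that were not called changed sign 75 times, in 19 genes. The share of all genes called was 9.31%, and 13.1% where the mean count reached 10. The methods state that littermates served as controls in the behavioural tests. No paired analysis was possible because the labels give neither litters nor shared replicate numbers, so the p-values take no account of litter.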
